A study of Homo sapiens with 8 samples.

Results

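AP-1 is a family of dimeric transcription factors, and 10 of its genes were followed here: FOS, FOSB, FOSL1 and FOSL2 of the FOS family, JUN, JUNB and JUND of the JUN family, and the related ATF3, BATF3 and MAFF. They were chosen by gene name among the 58735 genes of the deposited count table, with earlier results of these data known. Each name matched 1 row, and all 10 genes were among the 17413 that passed a filter on low counts. The study sequenced RNA of SV-HUC1, a human urothelial cell line immortalised with SV40, in 8 libraries. In the 4 treated cultures glucose oxidase, which oxidises glucose and releases hydrogen peroxide, was present at 20 mU per ml for 24 h. The 4 control cultures were untreated and are labelled 24 h as well. All cultures shared one line and one serum-containing medium, and without a group given peroxide itself or inactive enzyme, what the peroxide did and what else the enzyme did cannot be told apart.

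FOS and JUN proteins bind DNA as dimers through a basic region and a leucine zipper, at sites known as TRE or CRE. FOS proteins need a JUN partner, while JUN proteins can also pair among themselves. ATF3 and BATF3 join JUN proteins in dimers. MAFF, a small MAF protein without an activation domain, pairs with itself or with NRF2-type partners at antioxidant response elements. Several of these genes are immediate early genes, whose mRNAs appear within minutes of a growth or stress signal through MAP kinases and then decay. In epithelia, AP-1 is known for its part in wound repair, stress responses and keratinocyte differentiation.

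Total counts ran from 21437267 to 27183692 in treated and from 21653952 to 23543702 in control libraries. Of 14 urothelial and epithelial markers 12 passed the filter, and their summed level, in CPM (counts scaled to a common library total), was 3805 to 4741 CPM in treated and 4271 to 7827 CPM in control libraries. The uroplakins UPK1A and UPK3A did not pass the filter, and in the edgeR fit with the replicate block described below 1 of the 12 was higher and 4 lower in treated cultures, where 7.51% of all genes were higher and 6.97% lower. Markers of fibroblasts summed to 13.7 to 30.5 CPM in treated and 13.5 to 27.9 CPM in control libraries, and those of endothelium stayed below 6.27 CPM. The leukocyte list summed to 100 to 206.3 CPM in treated and 65.4 to 140.7 CPM in control libraries, with CD74 its most abundant gene and PTPRC and CD3E among those below the filter. Their part in the results was not tested. In both groups, replicates 1 and 2 stood apart from replicates 3 and 4 across all genes, a division that is not in the labels. Library values below are therefore given in the order of replicates 1, 2, 3 and 4.

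Per length, JUNB was the most abundant AP-1 mRNA, and FOSL1 was the most abundant of the FOS family. In deposited FPKM (fragments per kilobase of exon, scaled for depth), JUNB averaged 158.2 ± 31.9 in treated and 150.5 ± 54.1 in control libraries (SD, n = 4 each). JUND averaged 47.0 ± 6.46 FPKM in treated and 50.1 ± 12.4 FPKM in control libraries. FOSL1 was next in both groups, at 45.9 ± 15.7 FPKM in treated and 23.0 ± 11.6 FPKM in control libraries. A middle group followed, made of MAFF (20.1 and 13.3 FPKM in treated and control means), FOSL2 (16.6 and 14.3), JUN (15.1 and 20.2) and ATF3 (13.9 and 8.77). FOS, the founding member, stood at 2.50 ± 0.97 FPKM in treated and 2.02 ± 0.37 FPKM in control libraries. BATF3 (0.23 and 0.20 FPKM) and FOSB (0.13 and 0.15 FPKM) were the lowest. In treated libraries the ranges of neighbours in this order were separate for JUNB over JUND, FOSL1 over MAFF, ATF3 over FOS and FOS over BATF3, and overlapped for all other neighbours. In control libraries they were separate for JUNB over JUND, JUND over FOSL1 and FOS over BATF3. FPKM divides by the length of all annotated exons, such as 7157 bases for FOSL2 and 5615 bases for MAFF. A gene reads lower where its main transcript is shorter than that, and transcript lengths were not examined.

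**Figure D1:**
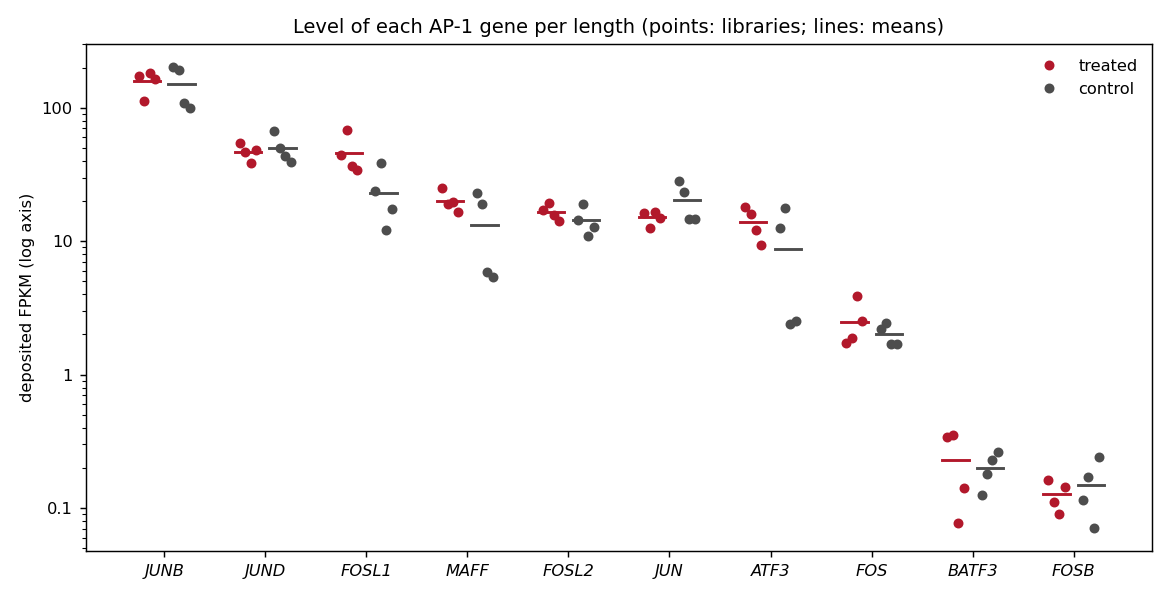
Deposited FPKM (log axis) of the 10 AP-1 genes, ordered by their mean in treated libraries. Points are libraries, treated left of control, and short lines are means of 4. JUNB lies between 99.9 and 202.1 FPKM in all 8 libraries, while FOSB and BATF3 stay below 0.36 FPKM.

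Within the FOS family, the mix of mRNAs was weighted more to FOSL1 in treated cultures. FOSL1 made up 70.0, 76.1, 65.1 and 67.2% of the summed FOS family FPKM in treated libraries, against 58.4, 64.3, 48.6 and 54.0% in control libraries. The lowest treated share thus lay above the highest control share. FOSL2 took most of the remainder, with 26.0 ± 2.95% in treated and 37.9 ± 5.51% in control libraries (SD, n = 4 each). Within the JUN family, JUN itself had 6.65, 7.31, 6.94 and 6.65% in treated libraries, against 9.48, 8.81, 8.78 and 9.57% in control libraries. Here too the groups did not overlap, and JUN's share was lower in treated cultures. In replicates 3 and 4 JUN itself was not lower (16.6 and 15.04 FPKM in treated, 14.55 and 14.76 FPKM in control libraries). There JUNB was higher (183.7 and 163.4 FPKM in treated, 107.9 and 99.86 FPKM in control libraries). JUNB held 71.4 ± 4.72% of the JUN family in treated and 67.5 ± 3.50% in control libraries. The summed JUN family was 3.62 ± 1.17 times the summed FOS family in treated libraries, and 5.81 ± 1.44 times in control libraries. These ratios within a library do not depend on how libraries are scaled. They show unequal change among members, and no test was run on them. How often such shares separate for other genes was not counted.

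The change with glucose oxidase was fitted in several ways, which differed in their calls. In the edgeR quasi-likelihood fit with the group as its only term, 0 of 10 AP-1 genes passed a Benjamini-Hochberg adjusted p of 0.05, where 0% of all genes passed and the smallest adjusted p was 0.257. At an unadjusted p below 0.05 this fit had 1 AP-1 gene, FOSL1, where 7.37% of all genes (1284) were below it. Libraries of the same replicate number deviated together from their group means, all 4 correlations being over 0.1. Differently numbered libraries within replicates 1 and 2 or 3 and 4 did so too, so this does not show that equal numbers mark pairs. A fit blocked on replicate number stands beside the first fit. It called 3 of 10 AP-1 genes higher (FOSL1, ATF3 and MAFF) and 0 lower, where 7.51% of all genes were called higher and 6.97% lower. At an unadjusted p below 0.05 it had 4 of 10, the other being JUN, where 28.9% of all genes were below it. A fit whose only other term split the replicates into 1 and 2 or 3 and 4, called the set term below, also gave these 3 genes and 0 lower, where 3.72% of all genes were called higher and 3.07% lower. DESeq2 with the block called FOSL1 alone, where 7.99% of all genes were called higher and 8.6% lower. DESeq2 without the block called 0 of 10, where 0.171% of all genes were called higher and 0.19% lower. In what follows, rose and fell are said of genes that passed in the edgeR fit with the block. The cultures are bulk samples, so fewer cells with a transcript and less of it per cell cannot be told apart.

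FOSL1, which encodes FRA-1, a FOS family member that lacks the strong activation domain of FOS, rose with glucose oxidase. The gene (ENSG00000175592) lies on chromosome 11 (65892049 to 65900573, minus strand, GRCh38). In TMM-normalised CPM it was at 84.2, 134.8, 68.9 and 65.6 in treated libraries, against 45.6, 76.7, 22.5 and 32.7 in control libraries. Every treated library was above the control of its own number, but treated 3 and 4 lay below control 2, so the groups overlapped. Its mean was 88.4 ± 32.0 CPM in treated and 44.4 ± 23.5 CPM in control cultures (SD, n = 4 each). The fitted log2 change was 1.07 (SE 0.15, edgeR with block, adjusted p = 4.87e-05) and 0.99 without the block (SE 0.37, adjusted p = 0.658). In DESeq2 with the block it was 1.07 (adjusted p = 6.50e-09). With the set term it was 1.06 (SE 0.20, edgeR adjusted p = 0.00673). Its change was 0.84 (SE 0.28) within replicates 1 and 2 and 1.28 (SE 0.28) within replicates 3 and 4, and the edgeR test of the difference did not pass (0.44, SE 0.39, adjusted p = 0.813). With the block, FOSL1 also passed without any one of the 4 replicate pairs (log2 change 0.90 to 1.18).

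ATF3 and MAFF rose in the edgeR fit with the block, and for both the size of the change differed between replicates 3 and 4 and replicates 1 and 2. ATF3 (ENSG00000162772, chromosome 1, 212565334 to 212620777, plus strand), a stress-induced factor that often acts as a repressor, was at 73.7, 67.0, 49.1 and 38.3 CPM in treated libraries. In control libraries it was at 51.8, 74.4, 9.52 and 10.2 CPM. Controls 3 and 4 were thus the low libraries, while controls 1 and 2 stood in or above the treated range. The log2 change was 1.11 (SE 0.25, edgeR with block, adjusted p = 0.00361), or 0.64 without the block (adjusted p = 0.766). It was 0.16 (SE 0.21) within replicates 1 and 2 and 2.14 (SE 0.22) within replicates 3 and 4, a difference of 1.99 (SE 0.30, edgeR adjusted p = 0.0145).

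MAFF (ENSG00000185022, chromosome 22, 38200767 to 38216511, plus strand) showed the same layout of libraries. It was at 143, 111.6, 109.7 and 93.5 CPM in treated libraries, against 132, 111.4, 32.4 and 30.1 CPM in control libraries. Treated libraries and controls 1 and 2 all lay between 93.5 and 143 CPM, and controls 3 and 4 were far below them. The log2 change was 0.86 (SE 0.22, edgeR with block, adjusted p = 0.00822), or 0.58 without the block (adjusted p = 0.734). It was 0.07 (SE 0.20) within replicates 1 and 2 and 1.70 (SE 0.20) within replicates 3 and 4. The difference of 1.63 (SE 0.28) passed as well (edgeR adjusted p = 0.0331). Of the AP-1 genes 2 of 10 passed this test as higher in replicates 3 and 4 and 0 as lower, where 0.212% of all genes passed as higher and 0.0172% as lower. With the set term, the edgeR adjusted p was 0.0341 for ATF3 and 0.0471 for MAFF, nearer to the threshold than with the block. Neither pooled call held in every setting: with the block, ATF3 had a log2 change of 0.84 without pair 4 (edgeR adjusted p = 0.103) and 1.15 in DESeq2 (adjusted p = 0.132). MAFF had 0.56 without pair 3 (edgeR adjusted p = 0.087), 0.60 without pair 4 (edgeR adjusted p = 0.161) and 0.87 in DESeq2 (adjusted p = 0.173). Over the 4 ways of leaving out a pair, the log2 change ran from 0.71 without pair 3 to 1.58 without pair 2 for ATF3, and from 0.56 without pair 3 to 1.18 without pair 2 for MAFF. TMM factors, which scale each library for its composition, were lowest in controls 3 and 4 (0.768 and 0.888, against 0.953 to 1.17 in the other libraries). Scaled by total counts alone, the differences were 2.19 for ATF3 and 1.83 for MAFF (edgeR adjusted p = 0.0216 and 0.0144). The difference of each AP-1 gene moved up by a similar amount, as for FOSL1 (0.44 to 0.63) and FOSL2 (0.22 to 0.41). A shift shared by genes follows from the TMM factors, so this scaling is no check on ATF3 and MAFF.

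**Figure D2:**
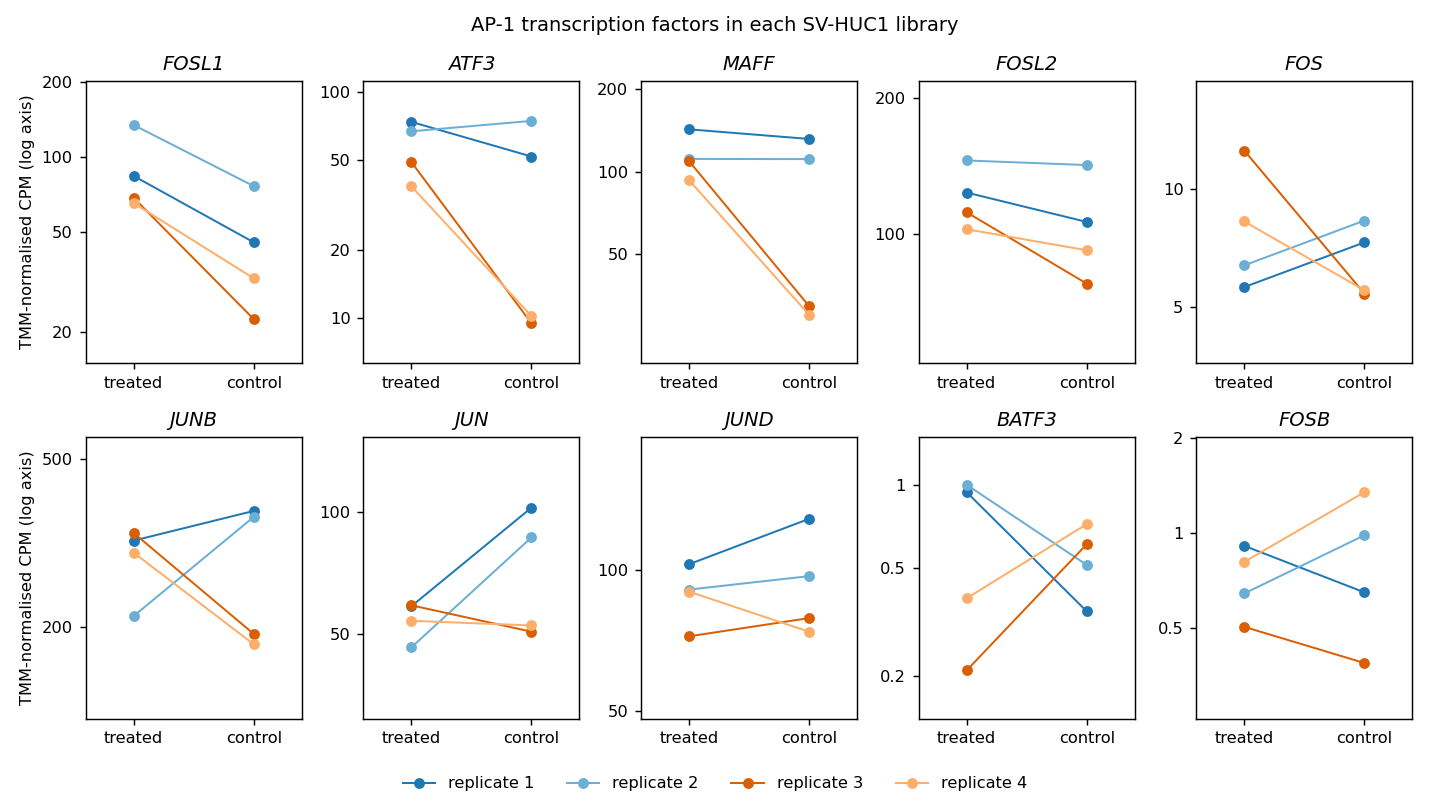
TMM-normalised CPM (log axis, scaled for each panel) of the 10 AP-1 genes, treated left of control, with lines joining libraries of the same replicate number. For ATF3 and MAFF, controls 3 and 4 lie apart from the other 6 libraries, at 9.52 and 10.2 CPM and at 32.4 and 30.1 CPM.

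Promoter windows from RefSeq (GRCh38.p14, 250 bases before to 50 after the start) were at hand for 8 of the 10 AP-1 genes (all but FOSL1 and BATF3), in 10 windows. Windows for ATF3 and MAFF are printed because these genes share a pattern over libraries, that of JUN because it moved otherwise, and that of FOSL2 for its TRE. Each is written 5′ to 3′ on the strand of its gene, and capitals mark matches on either strand to TGACTCA (TRE), TGACGTCA (CRE), TGACATCA (a variant known from JUN) or TGACNNNGC (antioxidant response element). The upstream ATF3 window is chr1:212565157-212565456 (plus strand), the MAFF window chr22:38201744-38202043 (plus strand), the JUN window chr1:58783998-58784297 (minus strand) and the FOSL2 window chr2:28392608-28392907 (plus strand).
ATF3: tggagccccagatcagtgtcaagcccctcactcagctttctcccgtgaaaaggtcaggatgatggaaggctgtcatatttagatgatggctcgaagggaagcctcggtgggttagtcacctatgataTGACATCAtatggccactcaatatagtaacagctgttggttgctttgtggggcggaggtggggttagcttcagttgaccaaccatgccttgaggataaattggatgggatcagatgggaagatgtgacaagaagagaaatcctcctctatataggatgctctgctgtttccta
MAFF: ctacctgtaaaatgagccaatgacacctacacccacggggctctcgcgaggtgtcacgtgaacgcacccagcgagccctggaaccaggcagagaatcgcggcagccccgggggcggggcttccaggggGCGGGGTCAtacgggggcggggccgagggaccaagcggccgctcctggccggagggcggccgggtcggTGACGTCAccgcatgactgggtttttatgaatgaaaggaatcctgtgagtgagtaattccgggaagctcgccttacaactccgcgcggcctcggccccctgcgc
JUN: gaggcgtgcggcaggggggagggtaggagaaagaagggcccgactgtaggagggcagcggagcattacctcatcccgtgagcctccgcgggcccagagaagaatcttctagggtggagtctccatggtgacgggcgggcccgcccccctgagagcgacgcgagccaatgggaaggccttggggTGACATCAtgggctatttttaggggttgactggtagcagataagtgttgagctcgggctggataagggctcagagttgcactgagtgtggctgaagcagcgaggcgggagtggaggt
FOSL2: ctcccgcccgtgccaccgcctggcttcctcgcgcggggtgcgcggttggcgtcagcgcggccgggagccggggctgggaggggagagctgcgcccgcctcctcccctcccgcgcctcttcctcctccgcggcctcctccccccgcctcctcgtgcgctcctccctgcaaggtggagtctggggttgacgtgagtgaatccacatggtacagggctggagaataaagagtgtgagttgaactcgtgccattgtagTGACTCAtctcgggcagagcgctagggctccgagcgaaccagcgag

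ATF3 and JUN both held TGACATCA, starting at -123 in ATF3 and at -67 in JUN relative to the start. MAFF held TGACGTCA at -54 and an antioxidant response element match at -122. FOSL2 held TGACTCA at 5 bases past the start. Of 35116 such windows of all genes, 2.61% held TGACATCA, 1.85% TGACGTCA, 4.95% TGACTCA and 13.3% TGACNNNGC. JUND held TGACGTCA at -200 and antioxidant response element matches at -230 and -90. The windows of FOS, FOSB and JUNB and the second windows of ATF3 and MAFF held none of these letters. A match is a description of the letters and not a measured site, and which start these cells used was not measured.

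The other FOS family members did not pass in any of the edgeR or DESeq2 fits run. FOSL2, which encodes FRA-2, was at 123.4, 145.4, 111.6 and 102.3 CPM in treated libraries, against 106.2, 142, 77.5 and 91.9 CPM in control libraries. It was higher in treated libraries of all 4 pairs, a placement that 16.9% of all genes shared (17.1% were lower in all 4, as 0 of the AP-1 genes were) and that FOSL1 and MAFF had too, though by 0.0027 on the log2 scale in pair 2 of MAFF. Its log2 change was 0.23 (SE 0.14, edgeR with block, adjusted p = 0.297). FOS, the classical immediate early gene, was at 5.63, 6.39, 12.5 and 8.25 CPM in treated libraries, against 7.31, 8.30, 5.42 and 5.53 CPM in control libraries. Treated libraries were below their controls in pairs 1 and 2 and above them in pairs 3 and 4. The log2 change of FOS was 0.25 with the block (SE 0.22, edgeR adjusted p = 0.497), -0.38 within replicates 1 and 2 and 0.92 within replicates 3 and 4, and the difference between the sets did not pass (1.30, edgeR adjusted p = 0.302). FOSB rested on 7 to 28 counts per library and its log2 change was -0.17 (SE 0.41, edgeR with block, adjusted p = 0.832).

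JUN, the main partner of FOS proteins, was at 58.4, 46.2, 58.8 and 53.8 CPM in treated libraries, against 102.5, 86.5, 50.6 and 52.4 CPM in control libraries. Controls 1 and 2 were the high libraries, and all others lay between 46.2 and 58.8 CPM. Its log2 change was -0.37 (SE 0.17, edgeR with block, adjusted p = 0.141). Within replicates 1 and 2 it was -0.85 (SE 0.19, edgeR adjusted p = 0.0915) and within replicates 3 and 4 it was 0.13 (SE 0.19). JUN passed as lower with the block once replicate 3 was left out (log2 change -0.56, edgeR adjusted p = 0.0468). The difference between the replicate sets was 0.98 (SE 0.27), with an edgeR adjusted p of 0.303, or 0.0488 where the replicate block was kept in the fit.

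JUNB, a JUN protein that can oppose JUN, was at 320.7, 212.5, 334.5 and 300.5 CPM in treated libraries, against 377.2, 365.1, 192.8 and 182.3 CPM in control libraries. Treated libraries were lower than their controls in pairs 1 and 2 and higher in pairs 3 and 4. Its log2 change was 0.13 (SE 0.20, edgeR with block, adjusted p = 0.731), with -0.48 (SE 0.23) within replicates 1 and 2 and 0.76 (SE 0.23) within replicates 3 and 4. The difference of 1.24 (SE 0.32) did not pass in the edgeR fit (adjusted p = 0.255), but passed with the block kept (adjusted p = 0.0189) and in DESeq2 (adjusted p = 0.0302). Of the 1820 exon bases of JUNB, 259 (14.2%) also belong to exons of HOOK2 on the other strand. Since it is not known whether strand was used in counting, how reads there were assigned is not known either. No other AP-1 gene shared exon bases with another gene in GENCODE 29.

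JUND, the JUN member that is usually expressed without a stimulus, was at 103.1, 91.0, 72.3 and 90.1 CPM in treated libraries, against 128.9, 97.2, 79.1 and 73.9 CPM in control libraries. The groups overlapped, and its log2 change was -0.07 (SE 0.14, edgeR with block, adjusted p = 0.809), or 0.04 when libraries were scaled by total counts. BATF3, a small partner of JUN proteins known from dendritic cells, rested on 5 to 28 counts per library. It was at 0.94, 1.00, 0.21 and 0.39 CPM in treated libraries, against 0.35, 0.51, 0.61 and 0.72 CPM in control libraries. It was thus higher in treated 1 and 2 and lower in treated 3 and 4 than in their controls. The log2 change was 0.14 (SE 0.50, edgeR with block, adjusted p = 0.892), and the difference of -2.30 (SE 0.76) between the replicate sets did not pass (edgeR adjusted p = 0.451). No AP-1 gene had all 4 treated libraries above or all below the 4 controls in CPM, where 2.42% of all genes were placed above and 2.6% below.

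**Figure D3:**
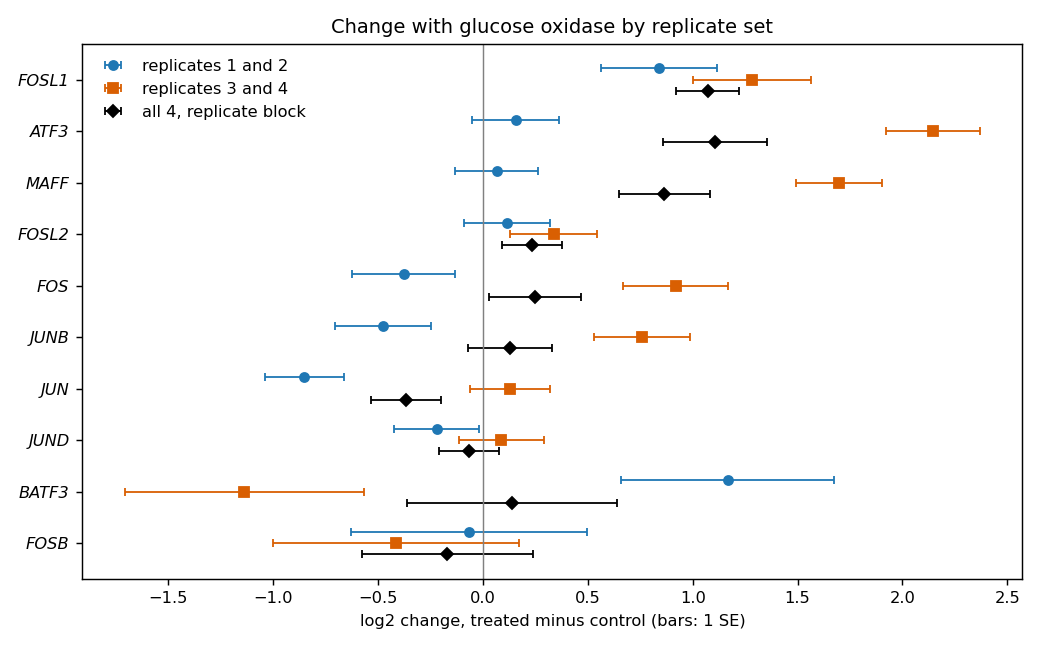
Fitted log2 change (treated minus control) of the 10 AP-1 genes in edgeR, within replicates 1 and 2, within replicates 3 and 4, and over all replicates with the replicate block. Bars are 1 SE. FOSL1 lies to the right of 0 in both sets, ATF3 and MAFF lie near 0 in replicates 1 and 2 and at 2.14 and 1.70 in replicates 3 and 4, and JUN lies at -0.85 in replicates 1 and 2.

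Within replicates 3 and 4 alone, FOSL1, ATF3 and MAFF passed (edgeR adjusted p = 0.0332, 0.00017 and 0.000459), and 0 of 10 passed as lower, where 1.34% of all genes passed as higher and 0.534% as lower. Within replicates 1 and 2 alone 0 of 10 AP-1 genes passed, where 0.0689% of all genes passed as higher and 0.115% as lower. Unadjusted p values below 0.05 there were those of JUN (0.000511), FOSL1 (0.00898) and BATF3 (0.0382), or 3 of 10, where 17.6% of all genes were below 0.05. The median log2 change of the 10 genes was 0.19 with the block, beside -0.0068 over all genes tested. It was -0.0009 within replicates 1 and 2 and 0.55 within replicates 3 and 4, beside -0.0073 and -0.0068 over all genes.

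In the authors' deposited table, FOSL1 had a log2 fold change of 1.00 with a p-value of 0.0079 and an adjusted p-value of 0.351. ATF3 had 0.66 (adjusted p-value 0.77) and MAFF 0.59 (adjusted p-value 0.743) in the authors' deposited table. JUN had -0.42 (adjusted p-value 0.69) in the authors' deposited table, and the other 6 genes had adjusted p-values of 0.81 to 0.957 there.

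Genes that work with AP-1 were followed in 5 further lists. These lists were chosen with earlier results of these data known, so their counts beside all genes are a description and not a test. Of 18 tested bZIP partners, 4 rose and 1 fell, where 7.51% of all genes rose and 6.97% fell, with a median log2 change of 0.28. BATF2 (log2 change 0.89), CEBPG (0.54) and MAFG (0.41), a small MAF protein like MAFF, were among those that rose, and BATF, a JUN partner of lymphocytes, fell by 0.50 on the log2 scale. With the set term, 2 bZIP partners were higher and 0 lower, where 3.72% of all genes were higher and 3.07% lower. Of 22 genes of the MAP kinase cascade, which activates AP-1 proteins, 1 rose and 1 fell, where 7.51% of all genes rose and 6.97% fell, and the median was 0.067. MAP2K3, a kinase of the p38 branch, rose by 0.40 (SE 0.14, edgeR adjusted p = 0.0476), a call lost with the set term (adjusted p = 0.0836). MAP2K6, of the same branch, was at 1.69, 1.53, 20.9 and 20.7 CPM in treated libraries, against 5.49, 6.37, 47.8 and 37.5 CPM in control libraries. Each treated library was below its own control, although replicates 1 and 2 and replicates 3 and 4 lay at different levels. MAP2K6 fell by 1.36 on the log2 scale (SE 0.18), and the call held with the set term (edgeR adjusted p = 0.000743).

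Of 9 tested SRF, ELK and MEF2 activators of immediate early genes, 4 rose and 0 fell, where 7.51% of all genes rose and 6.97% fell, with a median log2 change of 0.41. These were MEF2A (0.66), ELK4 (0.58), ELK3 (0.51) and MEF2D (0.50), and MEF2A alone passed with the set term, where 3.72% of all genes were higher. SRF itself was at 25.7 ± 1.82 CPM in treated and 22.6 ± 2.69 CPM in control cultures (edgeR adjusted p = 0.373). Of 6 genes of mRNA decay and stability, 0 passed in edgeR or in DESeq2 with the block, and 3 had an unadjusted p below 0.05 in edgeR with the block, where 28.9% of all genes did. Without the block, 0 genes of these lists passed in edgeR, where 0% of all genes passed. An unadjusted p below 0.05 was found there for 3 bZIP partners, 1 kinase, 1 activator, 0 decay genes and 7 of the AP-1 targets described next. Of all genes, 7.37% were below 0.05 in that fit. DESeq2 without the block called 1 AP-1 target and 0 genes of the other lists, where 0.171% of all genes were called higher and 0.19% lower.

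Of 24 tested genes known as AP-1 targets, 14 rose and 1 fell, with a median log2 change of 0.61, beside 7.51% of all genes higher and 6.97% lower. HBEGF, an EGF receptor ligand, was at 123.3, 160.3, 90.8 and 79.0 CPM in treated libraries, against 83.5, 71.5, 10.1 and 8.65 CPM in control libraries. Its log2 change was 1.97 (SE 0.28, edgeR adjusted p = 6.68e-05). TGM1, a transglutaminase of the cornified envelope (1.25), LAMB3, a laminin chain at 846 ± 364 CPM in treated and 432 ± 306 CPM in control cultures, and DUSP5, an ERK phosphatase (1.29), rose as well. IVL, the cornified envelope precursor involucrin, fell by 1.63 on the log2 scale (SE 0.28, edgeR adjusted p = 0.000383), to 1.35 ± 0.18 CPM in treated cultures, against 4.54 ± 2.15 CPM in control cultures. With the set term, 10 targets were higher and 1 lower, beside 3.72% of all genes higher and 3.07% lower. In DESeq2 with the block the counts were also 10 and 1, beside 7.99% of all genes higher and 8.6% lower. MMP3, MMP10, SPRR1A, SPRR1B, SPRR3 and GJA1 did not pass the filter on low counts. The median of the target list was 0.29 within replicates 1 and 2 and 0.86 within replicates 3 and 4. These genes have other activators too, and AP-1 binding was not measured. The target list was chosen with earlier results of these data known, so its counts beside those of all genes are no test.

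**Figure D4:**
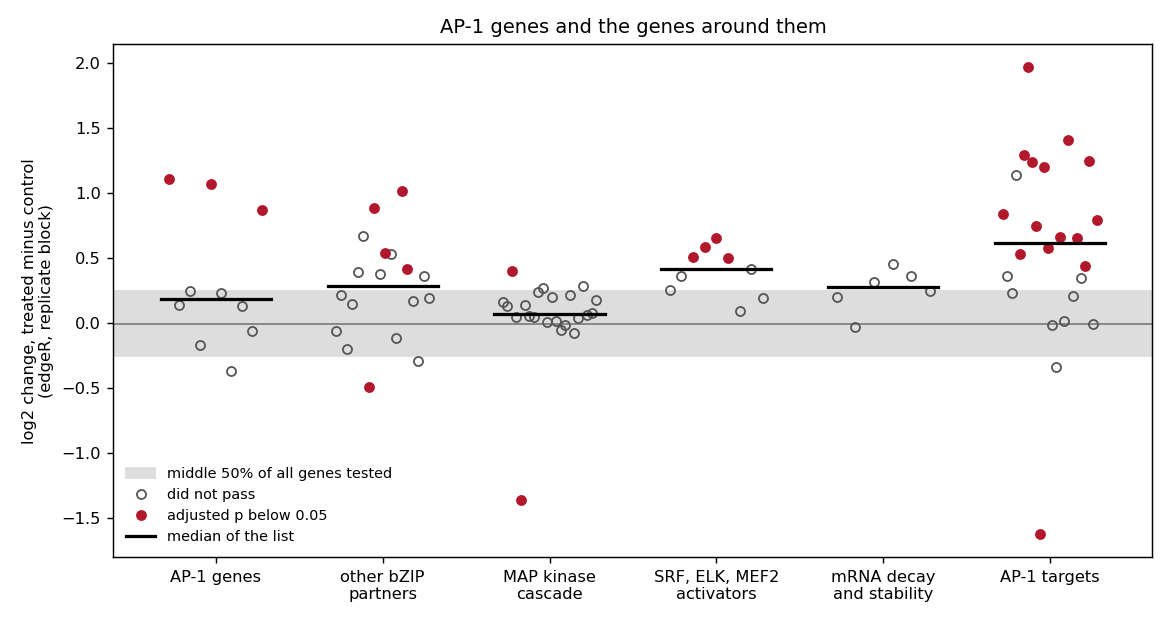
Log2 change (treated minus control, edgeR with the replicate block) of each tested gene in the AP-1 family and 5 lists of genes that work with it. Filled points passed an adjusted p of 0.05, black lines are list medians and the grey band holds the middle 50% of all genes tested. The AP-1 targets have the highest median, at 0.61, and the MAP kinase genes the lowest, at 0.067. All lists were chosen with earlier results of these data known.

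From 10873 protein-coding genes with a mean CPM of 5 or more, the ones nearest in pattern to FOSL1, ATF3 and MAFF were found from log2 CPM over the 8 libraries, each gene centred on its own mean. Likeness was the root mean square difference in log2 units. ITPR3, a calcium channel of the endoplasmic reticulum (0.14), ABCC3, an export transporter (0.15), and ZNF609 (0.15) were nearest to FOSL1. ZBP1, a sensor of Z-form nucleic acids (0.20), SESN2, a stress-induced regulator (0.21), and TRIB3, a pseudokinase (0.22), were nearest to ATF3. AREG, the EGF receptor ligand amphiregulin (0.11), PPP1R15A, a phosphatase subunit of the integrated stress response (0.15), and FST, the activin antagonist follistatin (0.15), were nearest to MAFF. The 8 points of such a profile share the division into replicate sets, so likeness also counts that division.

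**Figure D5:**
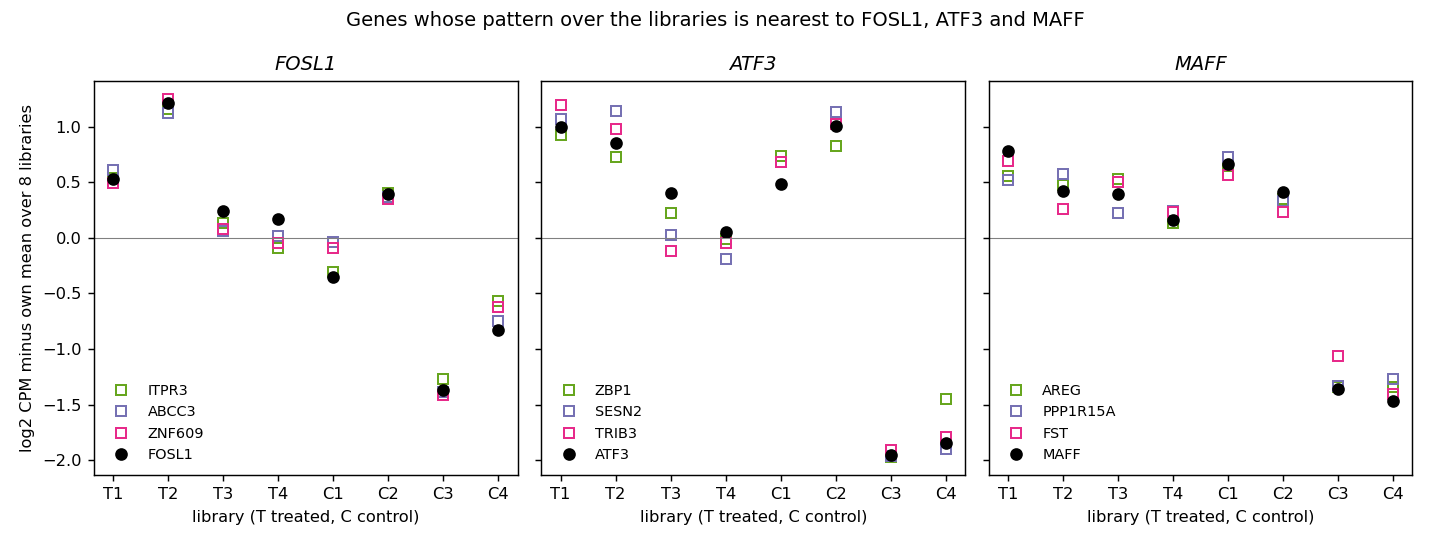
Log2 CPM of FOSL1, ATF3 and MAFF (black) and of the 3 genes nearest to each (open squares), centred on the mean over 8 libraries, with treated libraries (T) left of controls (C). For each of the 3 AP-1 genes, controls 3 and 4 are the lowest libraries. The nearest genes lie at a root mean square difference of 0.11 to 0.22 log2 units.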

How the data were processed

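Total RNA from 4 treated and 4 control SV-HUC1 cultures was measured by RNA-seq. The submitters' processing notes name the build GRCh38.p13, DESeq2 1.20.0, featureCounts 1.5.0-p3 and HISAT2 2.0.5 without their roles, and whether strand was used in counting is not stated there. Raw read counts per gene were deposited by the authors. Deposited FPKM were, as the values show, computed by the authors from size factors: the denominator of a library is its factor times one constant. The authors' deposited table holds size-factor-normalised signal, log2 fold changes, p-values and adjusted p-values, and per the file headers a gene length in bases.

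The main test was edgeR 4.0.16 in R 4.3.3 (quasi-likelihood, TMM, filterByExpr at its minimum count of 10, Benjamini-Hochberg over all genes tested, threshold 0.05). The design had the group as its only term. DESeq2 1.42.0 and further alternatives are given in the closing section. A standard error is the log2 change divided by the root of the F statistic. Same-number libraries correlated at 0.532, 0.678, 0.590 and 0.503 in their deviations from the group mean (log2 CPM, prior count 2). These were over the minimum of 0.1, by which the replicate number was taken as a block. Differently numbered libraries within replicates 1 and 2 or 3 and 4 correlated at 0.443 to 0.652, so the block also carries that division. Treated 4, for one, correlated at 0.652 with control 3 and at 0.503 with control 4. The minimum therefore cannot tell same-number pairs from that division. The labels call the samples biological replicates without saying that they came from separate experiments or that equal numbers mark one, so p-values measure the spread between these samples. Figures were drawn with matplotlib 3.10.9.

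The AP-1 genes, the division of replicates, the gene lists and the tests were chosen with earlier results of these data known. Named besides the AP-1 genes were, from each list, up to 4 called genes of smallest adjusted p in each direction with the block, and the 3 nearest genes in pattern for each called AP-1 gene. Genes outside that rule were named after their values were seen. One gene that the rule names is not reported here.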

Additional observations from a re-analysis of the deposited data

Results flagged for a closer look

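The change of 2 AP-1 genes with glucose oxidase differed between replicates 3 and 4 and replicates 1 and 2 in the edgeR interaction test. For ATF3 the difference of log2 change was 1.99 (SE 0.30, adjusted p = 0.0145), with mean levels in replicates 3 and 4 of 43.7 CPM in treated and 9.88 CPM in control cultures. In replicates 1 and 2 the means of ATF3 were 70.3 CPM in treated and 63.1 CPM in control cultures. For MAFF the difference was 1.63 (SE 0.28, adjusted p = 0.0331), with means in replicates 3 and 4 of 101.6 CPM in treated and 31.3 CPM in control cultures, and in replicates 1 and 2 of 127.3 CPM in treated and 121.6 CPM in control cultures. Each set held 2 libraries per group. By Dixon's test, 0 AP-1 genes had a library far from the other 3 of its group in CPM. The test looks for a single library, so it cannot flag 2 low libraries that lie close together, as controls 3 and 4 did for ATF3 and MAFF.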

How the results depend on the processing

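Over all genes, edgeR without the block called 0 higher and 0 lower, also with RLE normalisation and with scaling by total counts. It called 1308 higher and 1213 lower with the replicate block, 648 and 534 with the set term, 1675 and 535 with total counts and the block, 18 and 16 with no filter, and 1317 and 976 with no filter and the block. DESeq2 called 35 and 39 without and 1207 and 1299 with the block. Leaving out any one library without the block gave 0 and 0. With the block, leaving out pair 1, 2, 3 or 4 gave 917, 864, 593 or 978 higher and 717, 638, 507 or 908 lower. Among AP-1 genes, 3 were higher with the replicate block, with the set term, and with the block under total counts or no filter, 1 in DESeq2 with the block, 0 when a library was left out without the block, and 1 to 3 when a pair was left out with it (lower: 0 to 1). With the block, the median log2 change over all genes was 0.101 under total counts and -0.0068 under TMM. The difference between replicate sets was called for 2 AP-1 genes with RLE, total counts or no filter, for 3 in DESeq2 and for 4 with the block kept. The share of all genes called was not counted in these settings, so these counts stand without a background. JUND turned to 0.043 under total counts with the block. Without the block, leaving out a library gave log2 changes of -0.048 to 0.51 for BATF3, -0.091 to 0.27 for JUNB, -0.19 to 0.11 for JUND and -0.46 to 0.080 for FOSB. With the block, the changes turned to 0.034 for JUND and -0.32 for BATF3 without pair 1, to 0.0047 for FOSB and -0.20 for BATF3 without pair 2, to -0.064 for FOS and -0.10 for JUNB without pair 3, and to 0.052 for FOSB and -0.080 for JUNB without pair 4. No value that turned sign passed. The cause was not tested. Shares and ratios of FPKM sums were the same from TMM CPM per kilobase, as they must be, since the scaling of a library cancels in them. This is therefore no check on them. Counts of 5 to 28 limit what can be seen for FOSB and BATF3.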

Other observations

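Of 24 tested AP-1 targets, 7 changed by different amounts in replicates 3 and 4 and replicates 1 and 2 (edgeR interaction, adjusted p below 0.05), where 0.23% of all genes did so in either direction. They were named after their values were seen, from a list chosen with earlier results of these data known. CXCL8, the neutrophil chemoattractant interleukin 8, was at 865.8, 418.2, 2525 and 1586 CPM in treated libraries, against 1059, 714.6, 345.6 and 237.3 CPM in control libraries. Its log2 change was -0.47 within replicates 1 and 2 and 2.82 within replicates 3 and 4 (adjusted p of the difference 0.0192). HBEGF had 0.87 and 3.18 (adjusted p = 0.00299), and PHLDA1, a growth factor-induced protein, 0.33 and 2.59 (adjusted p = 0.00746). The others were IL6, DUSP5, AREG and VEGFA, and for all 7 the change was larger in replicates 3 and 4. That direction is not particular to them, since 37 of the 40 genes passing this test over all genes had it. Among the bZIP partners the same test passed for DDIT3, a factor of the integrated stress response, at 29.3, 18.2, 32.0 and 29.8 CPM in treated libraries, against 42.4, 28.6, 11.1 and 7.59 CPM in control libraries. DDIT3 was lower than its control in pairs 1 and 2 and higher in pairs 3 and 4.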
